A study of Mus musculus with 9 samples.

Results

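The mitochondrial ribosomal proteins are described here in mouse liver, as the protein-coding genes whose symbol is Mrpl or Mrps followed by a number and at most 1 letter. This rule found 78 genes among the 16266 listed in both deposited tables, of which 14325 are protein coding. By symbol, 29 belong to the small subunit (Mrps) and 49 to the large subunit (Mrpl). The rule used no measured value, so their levels and changes are results.

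Liver RNA was sequenced from 9 samples in 3 groups of 3. All mice are described as wild type and received an adeno-associated virus of serotype AAV8 by tail vein, with the TBG promoter, which is active in hepatocytes, driving the insert. The pair-fed group carried the control virus (MCS-3×FLAG insert), ate the control diet and ended with a maltose binge. The ethanol-fed group carried the same control virus, ate the ethanol diet and ended with an ethanol binge. The Mettl3 group carried a Mettl3-3×FLAG virus and had the same ethanol diet and binge. The diets started 3 weeks after the virus and ran for 10 days before the single binge. There was no pair-fed group with the Mettl3 virus, so the effect of the virus was measured under ethanol only. Each library is treated as a separate liver. The labels name no animals, so p-values measure only the spread between these samples, which may be technical.

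Mitochondria make a small set of inner-membrane respiratory proteins on ribosomes of their own, whose RNA is encoded by mitochondrial DNA. All the ribosomal proteins are encoded in the nucleus, made in the cytosol and imported. The small subunit reads the messenger RNA, and the large subunit forms peptide bonds and releases the chain towards the inner membrane. Many of these proteins descend from bacterial ribosomal proteins, and others are found only in mitochondrial ribosomes. Hepatocytes are rich in mitochondria, which also oxidise the acetaldehyde formed from ethanol.

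Symbols do not always give the place of a protein. Known structures put the products of Mrps30 and Mrps18a in the large subunit, and Mrps36 encodes a subunit of the 2-oxoglutarate dehydrogenase complex. Counted by structure, 26 members are in the small and 51 in the large subunit. By origin, 46 were counted as having a bacterial homolog and 31 as specific to mitochondria. Mrps18a and Mrps18b were counted in the 31, although they share a bacterial ancestor with Mrps18c. Groups are by symbol below unless stated.

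Libraries held between 34655840 and 38159563 reads over the genes listed in a table. Levels are in FPKM, a read count divided by the length of the gene and the total of the library. Mettl3 was at 3.48 ± 0.447 FPKM in pair-fed, 4.69 ± 0.842 in ethanol-fed and 32.2 ± 6.81 in Mettl3 livers (SD, n = 3 each) and was thus highest in the livers labelled for it. In bulk liver, fewer cells of a type and less RNA per cell cannot be told apart. None of the markers of 8 liver cell types found in the tables was at 0 in any library. The 9 hepatocyte markers summed to between 56345 and 70469 FPKM across all libraries, a sum in which the most abundant markers weigh most.

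All 78 members passed the filter on low values in each comparison, which asked for 1 FPKM or more in 3 or more of its libraries. Mean FPKM over the 9 libraries ran from 1.30 to 46.4 in the small subunit, with a median of 13.5. In the large subunit it ran from 1.82 to 57.8, with a median of 12.7. Levels of 10 FPKM or more were reached by 21 small-subunit and 30 large-subunit members, and 4 and 7 lay under 5. Reads per member and library ran from 64, for Mrps6, to 3094, for Mrpl12. The products stand together in 1 particle, yet FPKM spanned a 35.8-fold range in the small and a 31.7-fold range in the large subunit. FPKM divides by gene length, and read counts did not follow the same order. Mrpl3, at 2.05 FPKM, had 592 to 730 reads a library, and Mrpl52, at 48.1 FPKM, had 582 to 893. The part of gene length in these ranges was not tested.

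The highest small-subunit levels were those of Mrps21 (46.4 FPKM), Mrps18c (42.6) and Mrps7 (26.3), means over all 9 livers. The lowest were Mrps25 (1.30), Mrps35 (3.39) and Mrps10 (4.14). In the large subunit Mrpl12 (57.8), Mrpl52 (48.1) and Mrpl42 (47.5) were highest. Mrpl19 (1.82), Mrpl4 (1.99) and Mrpl3 (2.05) were lowest. Levels of neighbours in this order overlapped: Mrpl42 ran from 39.8 to 53.9 FPKM over the 9 livers, and Mrpl52 from 40.8 to 57.8. Mrpl12 and Mrpl10 form the flexible stalk that recruits translation factors, and Mrpl10, its base, was at 20.3 FPKM. The 3 Mrps18 paralogs descend from a single bacterial protein and were at 42.6 (Mrps18c), 19.9 (Mrps18a) and 19.4 FPKM (Mrps18b). Mrps30 was at 10.3 and Mrps36 at 13.5 FPKM.

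**Figure D1:**
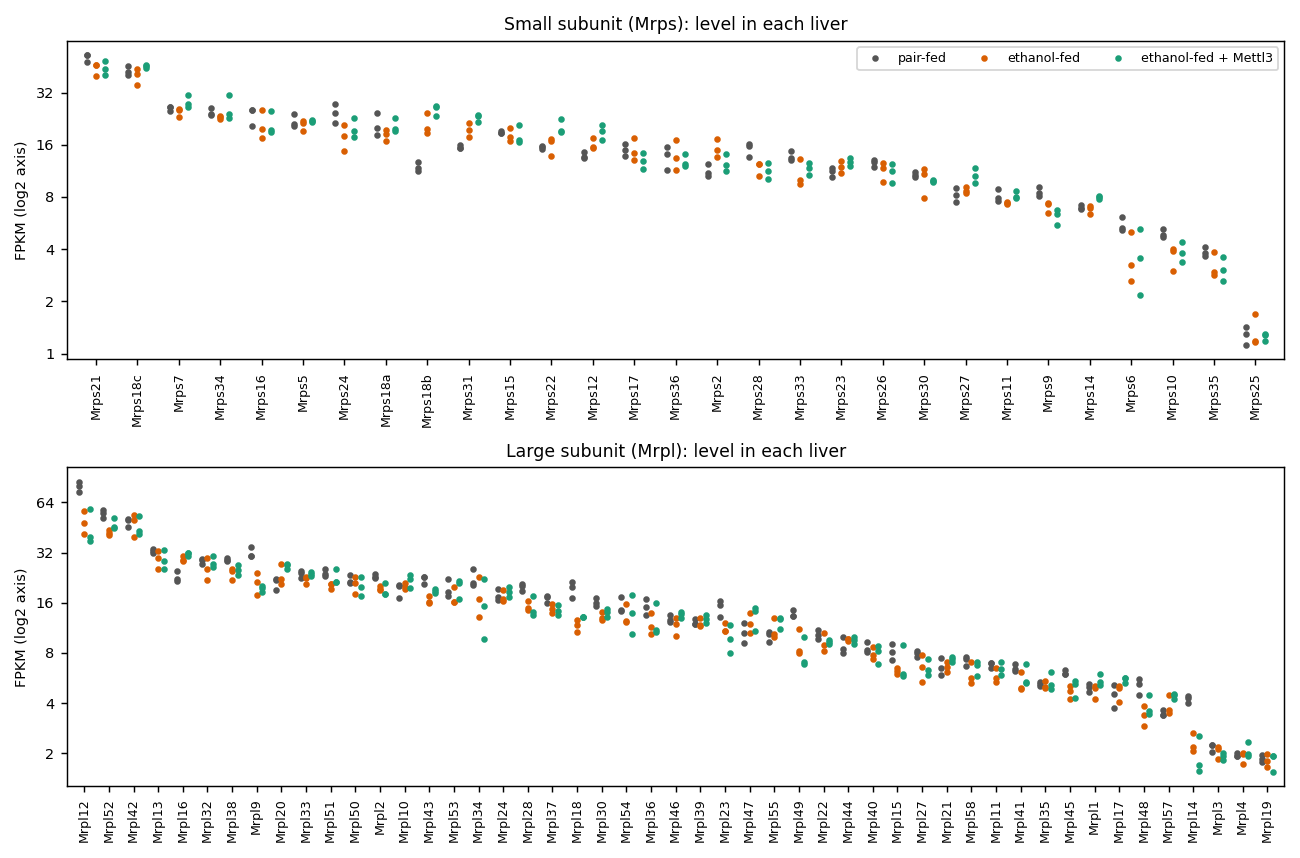
FPKM on a log2 axis of each small-subunit (upper panel) and large-subunit member (lower panel) in each of the 9 livers, ordered by mean level. Points are single livers, coloured by group. The levels run from Mrps25 at 1.30 FPKM to Mrpl12 at 57.8 FPKM, and for most members the 3 groups lie close together.

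The members are spread over 17 chromosomes, with the most, 11, on chromosome 11. By the GENCODE mouse annotation, 33 of the 78 (42.3%) start within 1000 bases of, or overlapping, the start of another protein-coding gene on the opposite strand. Among all genes tested in the first comparison with an entry, 1608 of 9482 (17.0%) do so. The share was 9 of 29 in the small and 24 of 49 in the large subunit. Mrpl46 and Mrps11 form such a pair with each other. Another protein-coding gene overlaps 26 members. Whether reads were counted by strand is not given in the sources used here, so reads from overlapping genes may not have been told apart.

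Promoter sequence was available for 69 of the 78 members in RefSeq (GRCm38), as windows from 250 bases before to 50 bases after an annotated start. These windows were searched on both strands for short motifs of factors known for mitochondrial and housekeeping genes. The NRF1 core, shown in capitals for Mrpl12 and Mrpl9 below, occurred in 13 of 69 members (18.8%) and in 976 of 8144 genes tested with an entry. The ETS core CCGGAAGT, which GABP and related factors recognise, occurred in 12 members (17.4%) against 9.87%. The YY1 core AAGATGGC occurred in 12 members (17.4%) against 5.70%. The E-box CACGTG occurred in 5 members (7.25%) against 12.1%. Counted by window this gap was narrower, with 7 of 75 member windows (9.33%) against 10.2% of all windows. The other motifs kept their order when counted by window. The ZNF143 motif occurred in 5 members (7.25%) against 4.85%. The composite TGATGNAAT of the stress factor ATF4 and its C/EBP partners occurred in 0 members and in 0.602% of all genes. A match is a description of letters and not of binding.

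Short stretches around a match are shown for 4 members whose levels moved and for Mrps18c, a paralog of Mrps18b that was not called, 5′ to 3′ on the gene's strand, with matches in capitals. The Mrpl12 stretch is chr11:120484548-120484573 (plus strand), the Mrpl9 stretch chr3:94443300-94443325 (plus), the Mrpl18 stretch chr17:12916316-12916339 (minus), the Mrps12 stretch chr7:28742005-28742028 (minus) and the Mrps18c stretch chr5:100798588-100798617 (plus), all in GRCm38. Capitals mark the NRF1 core in Mrpl12 and Mrpl9, the ETS core in Mrpl18, the YY1 core read from the other strand in Mrps12, and an E-box followed by a reversed ETS core in Mrps18c.
Mrpl12: ttgtctccGCGCCTGCGCgtcgcacc
Mrpl9: gcgcagctGCGCATGCGCggggtcct
Mrpl18: tgaaaacgCCGGAAGTagggggct
Mrps12: tggacgcaGCCATCTTggagtgga
Mrps18c: ccccgggtCACGTGACTTCCGGcccgggaa
The windows of Mrps18b, Mrpl16, Mrps2 and Mrps31, which also moved in the comparisons below, held none of the 6 motifs. Those of Mrpl14 and Mrpl49, not shown, held an NRF1 core and a YY1 core.

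The first comparison asked how ethanol feeding with a binge moved these transcripts under the control virus. Most changes were small. On the log2(FPKM + 1) scale 53 of 78 members lay within 0.25 of no change, and none reached 1. Of all 10064 genes tested, 4566 lay within 0.25 and 670 reached 1 in either direction. In limma's moderated test with Benjamini-Hochberg adjustment over 10064 genes, 4 members were higher and 13 lower at an adjusted p under 0.05, and 61 were not called. Over all genes tested 10.0% were higher and 26.0% lower, so that 36.0% were called against 17 of 78 members. The large subunit held 12 of the 13 falls and 1 rise among 49 members. The small subunit held 3 rises and 1 fall among 29. The median log2 fold change was -0.09 in the small and -0.16 in the large subunit, beside -0.14 over all genes tested. Ethanol-fed livers lay wholly above pair-fed livers for 5 members and wholly below for 27, where 15.4% and 37.2% of all genes did so.

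These counts depend on the scale, since the median of all genes was itself below 0. Scaling the libraries by the median ratio of their genes moved that median to 0.01 and gave 6 members higher and 6 lower, with 17.6% of all genes higher and 16.7% lower. The subunit medians then turned to 0.09 and 0.01. All 6 falls under that scaling were in the large subunit, and 4 of the 6 rises in the small. In the authors' deposited table, which tests counts scaled by size factors, 5 members were higher and 6 lower at q under 0.05, where 14.0% and 12.6% of its genes were. Its 6 falls were in the large subunit and 4 of its 5 rises in the small, and 4 of the rises and all 6 falls were called here too.

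**Figure D2:**
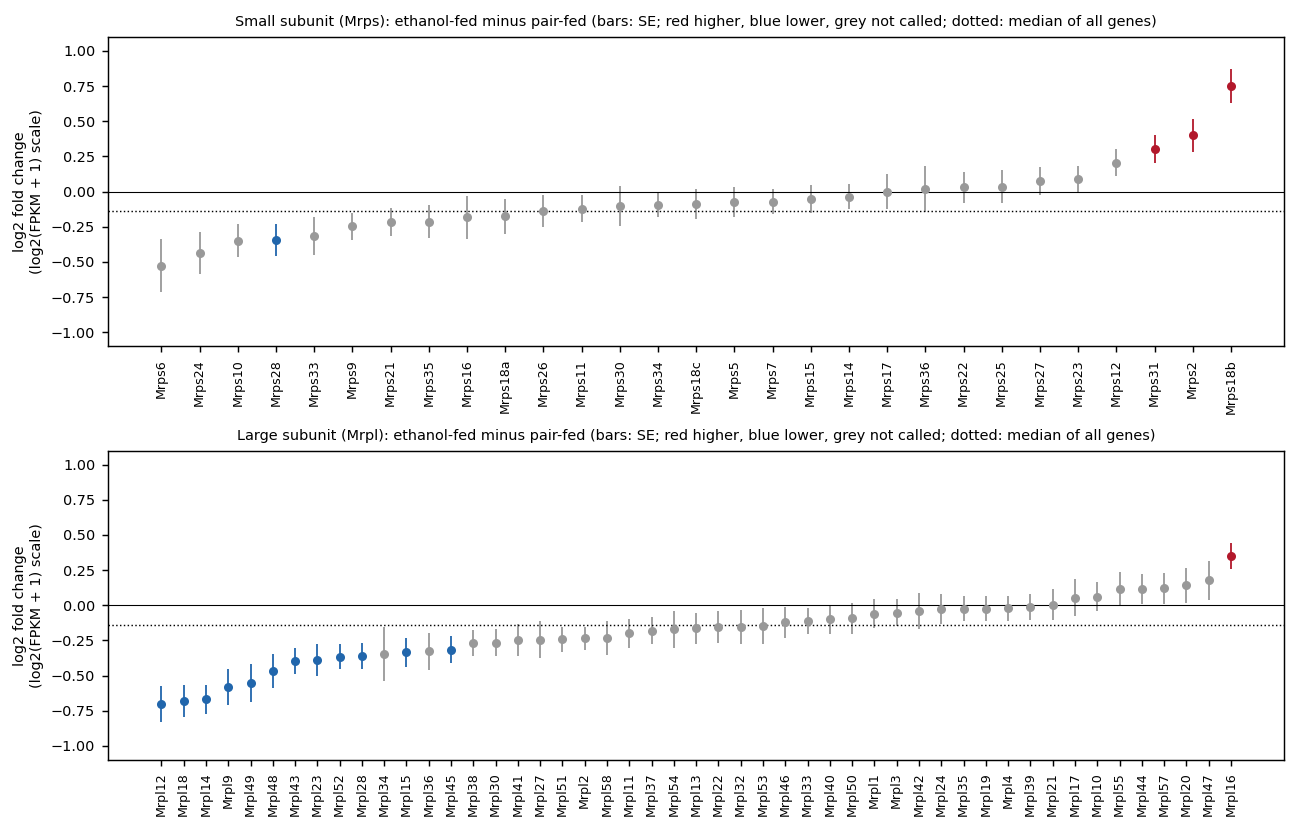
Log2 fold change of ethanol-fed minus pair-fed livers on the log2(FPKM + 1) scale for each member, small subunit above and large subunit below, with bars for SE. Red and blue points passed limma's adjusted p of 0.05 as higher and lower, and the dotted line is the median of all genes (-0.14); falls of more than 0.5 that passed are Mrpl12, Mrpl18, Mrpl14, Mrpl9 and Mrpl49.

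Mrpl12, the stalk protein, which also binds the mitochondrial RNA polymerase, had the largest fall on the log2(FPKM + 1) scale. It was at 73.9, 79.8 and 84.7 FPKM in pair-fed livers and at 56.8, 41.5 and 48.3 in ethanol-fed livers. Every ethanol-fed liver was below every pair-fed one, and the means were 79.5 ± 5.41 and 48.9 ± 7.69 FPKM (SD, n = 3 each). The log2 fold change was -0.70 (SE 0.13), with limma's adjusted p at 0.00730. Mrpl10, the stalk base, was not called. It was at 20.4, 20.2 and 17.0 FPKM in pair-fed and 21.0, 19.8 and 19.3 in ethanol-fed livers, and these overlapped (log2 fold change 0.06, limma adjusted p 0.666).

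Mrpl18, a protein of the central protuberance on top of the large subunit, was at 17.0, 19.9 and 21.3 FPKM in pair-fed livers. In ethanol-fed livers it was at 11.7, 10.7 and 12.6 FPKM. The groups did not overlap, and the log2 fold change was -0.68 (SE 0.12, limma adjusted p 0.00553). Mrpl14, which lies at the face where the subunits join, was at 4.03, 4.28 and 4.40 FPKM in pair-fed livers. It was at 2.66, 2.07 and 2.18 FPKM in ethanol-fed livers, all lower, with a log2 fold change of -0.67 (SE 0.10, limma adjusted p 0.00422). Mrpl14 is low in FPKM, though it had 440 to 1231 reads a library, and its change is understated on this scale. In the authors' deposited table its log2 fold change was -0.70, beyond the -0.52 of Mrpl12.

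Mrpl9, a homolog of bacterial protein L9, was at 30.3, 30.5 and 34.6 FPKM in pair-fed and 24.2, 21.2 and 17.7 in ethanol-fed livers, a change of -0.58 on the log2 scale (SE 0.13, limma adjusted p 0.0136). Mrpl49, specific to mitochondria, was at 13.3, 13.3 and 14.4 FPKM in pair-fed and 11.1, 7.99 and 8.21 in ethanol-fed livers (log2 fold change -0.55, SE 0.13, limma adjusted p 0.0189). In both genes all ethanol-fed livers lay below all pair-fed ones, and the spread among ethanol-fed livers was the wider.

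The other large-subunit falls were smaller. Mrpl48, also of the central protuberance, had means of 5.08 ± 0.547 and 3.40 ± 0.460 FPKM (SD over 3 livers each) and a log2 fold change of -0.47. Mrpl43 and Mrpl52, specific to mitochondria, had log2 fold changes of -0.40 and -0.36. Mrpl23, which lines the exit of the peptide tunnel, had -0.39, and Mrpl28, with a bacterial homolog, -0.36. Limma's adjusted p for these 5 ran from 0.0173 to 0.0336. The remaining falls, named after their values were seen, were Mrps28 (-0.34), Mrpl15 (-0.34) and Mrpl45 (-0.32), the last a contact of the ribosome with the inner membrane. Mrpl52 is among the most abundant members, at 54.7 ± 3.22 FPKM in pair-fed and 42.2 ± 1.58 in ethanol-fed livers (SD, n = 3 each).

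Mrps18b rose most. It was at 12.7, 11.3 and 11.8 FPKM in pair-fed livers and at 18.7, 24.2 and 19.7 in ethanol-fed livers. Every ethanol-fed liver was above every pair-fed one, with a log2 fold change of 0.75 (SE 0.12, limma adjusted p 0.00439). Its paralogs did not pass. Mrps18c was at 42.7 ± 2.57 and 40.1 ± 4.12 FPKM (SD, n = 3 each; log2 fold change -0.09, limma adjusted p 0.531). Mrps18a was at 20.9 ± 3.08 and 18.3 ± 1.36 FPKM (log2 fold change -0.18, limma adjusted p 0.302). Whether the 3 paralogs differ in their response was not tested.

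Mrps2, a homolog of bacterial protein S2, was at 12.3, 10.9 and 10.6 FPKM in pair-fed and 17.2, 15.0 and 13.5 in ethanol-fed livers (log2 fold change 0.40, SE 0.12, limma adjusted p 0.0340). Mrpl16, the only large-subunit rise, was at 24.8, 22.1 and 21.6 FPKM in pair-fed and 30.6, 28.9 and 28.7 in ethanol-fed livers (log2 fold change 0.35, SE 0.09, limma adjusted p 0.0250). Mrps31, specific to mitochondria, was at 15.2, 15.9 and 15.4 FPKM in pair-fed and 17.7, 19.4 and 21.3 in ethanol-fed livers (log2 fold change 0.31, SE 0.10, limma adjusted p 0.0465). In all 3 genes the ethanol-fed livers lay above the pair-fed ones without overlap. Mrps12, a protein of the decoding centre, was next, at 13.8 ± 0.577 and 16.1 ± 1.15 FPKM (SD, n = 3 each). Its log2 fold change of 0.21 had a limma adjusted p of 0.126, while the authors' deposited table gives it a q of 0.0303.

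**Figure D3:**
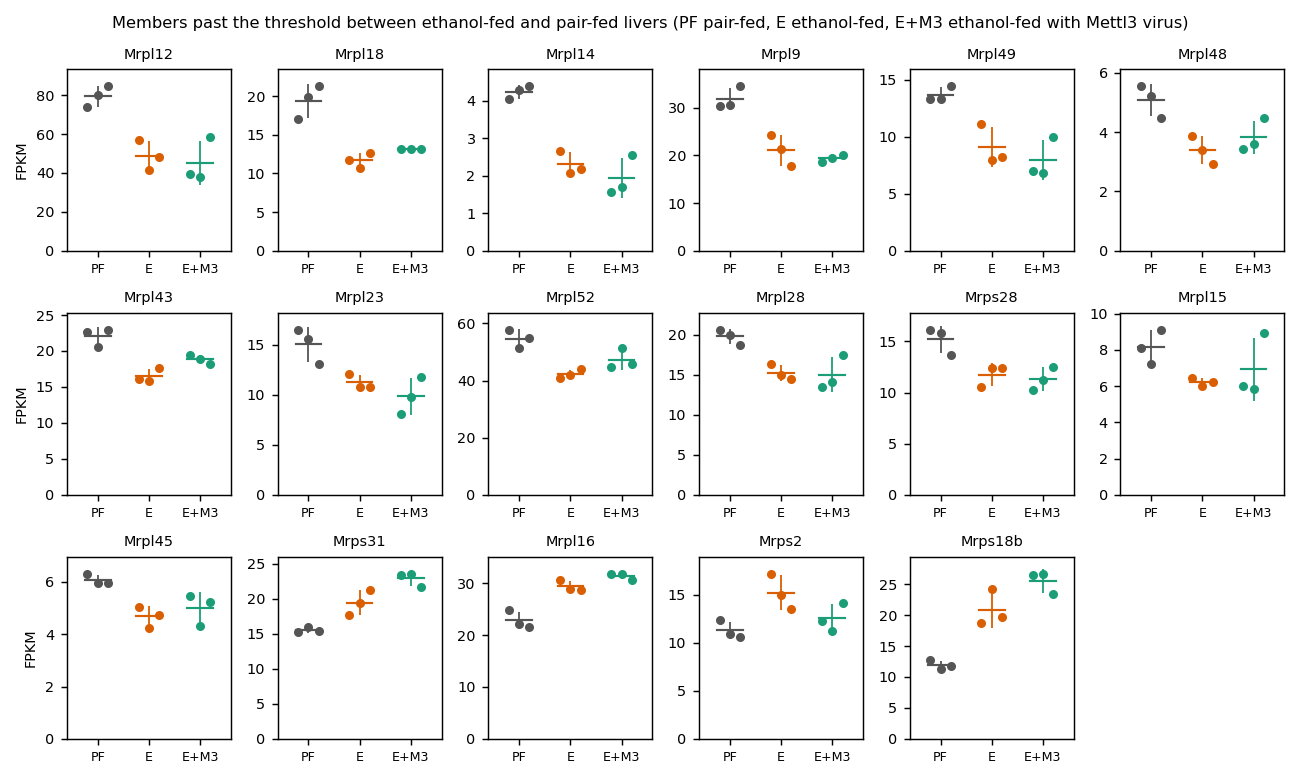
FPKM in each liver for the 17 members that passed between ethanol-fed and pair-fed livers, with all 3 groups shown; horizontal lines are group means and vertical lines SD, n = 3. Pair-fed livers lie above ethanol-fed livers in the 13 members that fell and below them in the 4 that rose.

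Single libraries weighed on the counts. Without ethanol-fed liver 1, which had the highest value of its group in 60 of 78 members, 26 members were lower, 5 small and 21 large, where 36.9% of all genes tested in that fit were lower. Without pair-fed liver 1, 2 or 3, 4, 4 and 5 were lower, and without ethanol-fed liver 2 or 3, 6 in each case. The share of all genes lower in these 5 fits was 15.4%, 11.5%, 11.5%, 18.3% and 17.9%. Without pair-fed liver 1, 2 or 3, 2, 1 and 1 were higher, and without ethanol-fed liver 1, 2 or 3, 4, 1 and 3, where between 4.15% and 11.1% of all genes were higher. Mrpl12, Mrpl14, Mrpl18 and Mrps18b passed under every alternative run. None of the 14 named members called in this comparison changed direction.

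The balance between the subunits can be read within each liver. The mean small-subunit FPKM over the mean large-subunit FPKM was 0.936, 0.951 and 0.935 in pair-fed livers. It was 1.02, 1.08 and 1.07 in ethanol-fed and 1.11, 1.11 and 1.05 in Mettl3 livers. All 6 ethanol livers lay above all 3 pair-fed ones, with group means of 0.940 ± 0.00886, 1.06 ± 0.0343 and 1.09 ± 0.0354 (SD, n = 3 each). This ratio does not depend on the scaling of a library, but abundant genes weigh most in it. Without Mrpl12, a choice made after its values were seen, the ratio was between 1.01 and 1.03 in pair-fed, 1.08 and 1.13 in ethanol-fed, and 1.11 and 1.15 in Mettl3 livers. With members placed by structure, the ranges were 0.927 to 0.964, 1.03 to 1.09 and 1.06 to 1.12. The groups stayed apart from pair-fed livers in both.

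A measure that weighs all members alike was less distinct. For each liver, the median difference from the pair-fed mean on log2(FPKM + 1) was taken in each subunit, and large was subtracted from small. This gave -0.02, 0.02 and -0.01 in pair-fed livers. It gave 0.01, 0.09 and 0.14 in ethanol-fed and 0.06, 0.08 and -0.01 in Mettl3 livers. Ethanol-fed liver 1 and Mettl3 liver 3 lay within the pair-fed range. Those livers also had the members' levels closest to pair-fed overall: their large-subunit medians were -0.01 and 0.03, against -0.25 and -0.26 in the other ethanol-fed and -0.13 and -0.18 in the other Mettl3 livers. The medians of all genes moved the same way, at -0.04 and -0.11 in these same livers, each the highest of its group.

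**Figure D4:**
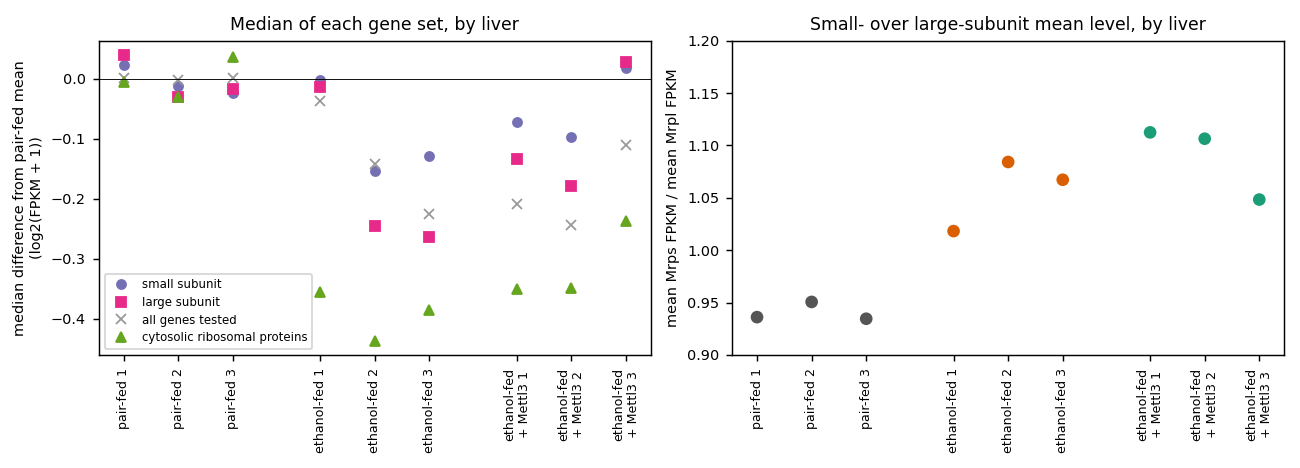
Left, the median difference from the pair-fed mean on log2(FPKM + 1) in each liver for both subunits, all genes tested and cytosolic ribosomal proteins; right, mean Mrps FPKM over mean Mrpl FPKM in each liver, on an axis that starts at 0.90. The ratio is at most 0.951 in pair-fed livers and at least 1.02 in the other 6, while in ethanol-fed liver 1 and Mettl3 liver 3 the medians of both subunits, but not those of cytosolic ribosomal proteins, lie near the values of pair-fed livers.

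Members were also counted by origin. Of those with a bacterial homolog, 2 of 46 rose and 8 fell, with a median of -0.14. Of those specific to mitochondria, 2 of 31 rose and 5 fell, also with a median of -0.14. Both shares were under those of all genes tested, 10.0% higher and 26.0% lower, in each direction. In the small subunit, the 10 members counted as mitochondria-specific had 2 rises, 0 falls and a median of 0.03. The 16 with a bacterial homolog had 1 rise, 1 fall and a median of -0.11. The 2 rises were Mrps31 and Mrps18b, and counting Mrps18b by its bacterial ancestor would move its rise to the other set. Cytosolic ribosomal proteins, whose ribosome translates nuclear messages, fell in 62 of 82 tested and rose in 1, with a median of -0.40. Under median-ratio scaling 10 of these fell and 2 rose, with a median of -0.22. Nuclear-encoded subunits of the respiratory chain and ATP synthase fell in 11 of 82 tested and rose in 1, with a median of -0.17. The differences between these sets were not tested.

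Other genes of mitochondrial translation were read from lists, whose counts stand beside the same 10.0% higher and 26.0% lower of all genes. The 5 ribosomal subunits with other symbols had no call, nor did the median move far (-0.08). They include Dap3, a GTP-binding small-subunit protein, at 4.70 ± 0.101 and 5.51 ± 0.508 FPKM in pair-fed and ethanol-fed livers (SD, n = 3 each). Of 25 assembly factors tested 3 rose and 5 fell. Ddx28, a helicase of large-subunit assembly, was at 5.83 ± 0.711 FPKM in pair-fed and 16.8 ± 4.97 in ethanol-fed livers (SD, n = 3 each). It rose by 1.34 on the log2 scale (limma adjusted p 0.00441), more than any of the 78 ribosomal proteins. Mettl17 and Mtg1, an assembly factor of the small subunit and a GTPase of the large, fell by 0.64 and 0.53 on the log2 scale. Mterf4, which guides the ribosomal RNA methyltransferase Nsun4, fell by 0.59.

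Of 13 translation factors, 1 fell and none rose: Oxa1l, the insertase at which mitochondrial ribosomes dock, fell by 0.46. Of 15 genes of mitochondrial transcription and RNA handling, 1 rose and 2 fell. Trmt10c, a subunit of mitochondrial RNase P, rose by 0.56, Tfam, which packages mitochondrial DNA and starts its transcription, fell by 0.48, and Grsf1, an RNA granule protein, fell by 0.46. Of 13 proteins encoded by mitochondrial DNA, the products of these ribosomes, 1 rose, ND1 of complex I (log2 fold change 0.47), and none fell. Of 9 chaperones and proteases 1 rose, Dnaja3 (0.42). Of 6 regulators tested 1 rose, the coactivator Pprc1 (0.90), and 2 fell, Yy1 (-0.65) and Ppargc1a (-0.49). In limma, adjusted p for these 9 genes ran from 0.00247 to 0.0452.

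Of the 9 hepatocyte markers 2 were called higher and 1 lower in the same comparison, where 10.0% and 26.0% of all genes were. Their log2 fold changes ran from -1.84 to 1.21. Markers of other cells moved too. Of 6 Kupffer cell markers 5 fell, and their sum went from between 166 and 193 FPKM in pair-fed livers to between 86.0 and 134 in ethanol-fed livers. The sum of 6 sinusoidal endothelial markers went from between 100.1 and 112 FPKM to between 83.3 and 83.7, with 4 genes called lower and 1, Lyve1, higher (log2 fold change 1.90). The sum of 6 stellate markers, 3 of them called lower, went from between 130 and 154 to between 115 and 138. That of 5 cholangiocyte markers went from between 28.3 and 41.2 to between 24.2 and 38.8, with 1 of 4 tested, Sox9, called higher (0.76). The 5 neutrophil markers summed to between 6.39 and 10.4 FPKM in pair-fed, 8.46 and 72.5 in ethanol-fed and 47.4 and 104 in Mettl3 livers. Of the 5 neutrophil markers 3 were tested in this comparison, and 1, S100a8, was called higher (2.10). The 4 T and NK cell markers summed to between 2.61 and 3.37 FPKM in pair-fed and 1.0 and 1.5 in ethanol-fed livers. The 3 B cell markers summed to between 1.86 and 2.97 and between 0.407 and 0.935, so both sums were lower under ethanol without overlap. The part of these cells in the members' changes was not tested.

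Of the 33 members with a head-to-head neighbour, 23 had one that was tested, in 22 distinct pairs since Mrpl46 and Mrps11 neighbour each other. In 15 of the 22 pairs neither gene was called. Mrps18b starts 45 bases from Ppp1r10, which encodes a regulator of protein phosphatase 1, and both rose. Ppp1r10 was at 2.16 ± 0.647 FPKM in pair-fed and 5.53 ± 1.94 in ethanol-fed livers (SD, n = 3 each), a rise of 1.02 on the log2 scale (limma adjusted p 0.0134). Mrpl49 starts 59 bases from Fau, which encodes a cytosolic ribosomal protein, and both fell (Fau -0.29). Mrpl14 and Mrpl18 overlap Tmem63b and Tcp1 at their starts, and both neighbours fell, by 0.87 and 0.33. Mrpl48 fell while its overlapping neighbour Rab6a rose by 0.76. Mrpl43 fell while its neighbour Twnk, the mitochondrial DNA helicase, was not called (0.10), and Mrps18c was not called while Helq rose by 0.58. Neighbours thus moved together in 4 pairs and in opposite directions in 1, and in 2 pairs 1 gene alone was called. Of all genes tested 10.0% were higher and 26.0% lower, and the share of such patterns among all head-to-head pairs was not counted. Where the genes overlap, their reads may not have been told apart. Pseudogenes are named after Mrpl23, Mrpl48 and Mrps36, so their values are less certain. Pseudogenes under other names were not searched for, so other members may have them too.

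The second comparison asked what the Mettl3 virus did to these transcripts under ethanol. The Mettl3 enzyme adds the N6-methyl mark (m6A) to adenosines of messenger RNA. No member was called in limma (0 of 78), where 1 of 9706 genes tested was, Mettl3 itself (0.0103%). At an unadjusted p under 0.05 there was 1 member, Mrps22, against 7.45% of all genes, and limma-voom on recovered reads called 0 members. The authors' deposited table also called 0 members, where it called 101 genes (0.613%). The medians were 0.07 in the small and 0.08 in the large subunit, beside -0.04 over all genes tested. Of 78 members 51 had a value above 0. Mettl3 livers lay wholly above ethanol-fed control livers for 17 members and wholly below for 0, where 6.17% and 6.62% of all genes did so.

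The smallest unadjusted p belonged to small-subunit genes. Mrps22, specific to mitochondria, was at 17.3, 13.7 and 16.7 FPKM in ethanol-fed control livers and 22.5, 18.9 and 19.2 in Mettl3 livers (log2 fold change 0.33, SE 0.13). Its values did not overlap, yet limma's adjusted p was 0.641. Mrps27, an RNA-binding pentatricopeptide repeat protein, was at 8.72 ± 0.356 and 10.6 ± 1.08 FPKM (SD, n = 3 each; log2 fold change 0.26), again without overlap. The values for Mrps18b, Mrps31 and Mrps14 were 0.28, 0.23 and 0.21. In the other direction Mrps2 was at 15.3 ± 1.85 and 12.6 ± 1.49 FPKM (SD, n = 3 each; log2 fold change -0.26), with overlap. Mrps9, Mrps17, Mrpl23 and Mrpl14 had values of -0.16, -0.19, -0.19 and -0.18. None of these 10 passed, with limma's adjusted p between 0.641 and 0.722.

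The third comparison set Mettl3 livers under ethanol against pair-fed livers with the control virus, so it holds diet and virus together. It shares the pair-fed livers with the first comparison and the Mettl3 livers with the second. In a limma fit of all 9 libraries, 8 members were higher and 11 lower, where 13.9% and 34.9% of 10229 genes were, 48.8% in all. The small subunit had 5 rises and 2 falls, and the large 3 rises and 9 falls. Medians were -0.02 and -0.12, beside -0.18 over all genes. Median-ratio scaling gave 25 higher and 4 lower, with medians of 0.19 and 0.12, where 25.3% and 21.6% of all genes were called. The count of rises therefore depends on the scale. Of the 11 falls 4 passed on that scale, all in the large subunit.

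Mrps18b rose most here too, to 26.5, 26.7 and 23.3 FPKM in Mettl3 livers (log2 fold change 1.04, SE 0.12, limma adjusted p 0.000534), with all 3 above every pair-fed liver. Mrps31 rose to 22.9 ± 1.04 FPKM (SD, n = 3; log2 fold change 0.53) and Mrpl16 to 31.4 ± 0.651 FPKM (SD, n = 3; 0.44). Mrps12 was at 13.4, 14.5 and 13.6 FPKM in pair-fed and 19.3, 20.7 and 16.9 in Mettl3 livers, without overlap (0.42). Mrps22, Mrps27, Mrpl20 and Mrpl57 rose by 0.36, 0.33, 0.33 and 0.27. Mrpl57 is low in FPKM, at 3.47 ± 0.127 and 4.41 ± 0.170 (SD, n = 3 each). In limma, adjusted p for the 7 other than Mrps18b ran from 0.00248 to 0.0444. Mrps2 was at 12.2, 11.2 and 14.2 FPKM in Mettl3 livers, which overlapped pair-fed livers, and was not called (log2 fold change 0.14, limma adjusted p 0.368). Under median-ratio scaling it was called higher (0.39, limma adjusted p 0.00615).

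Mrpl14 had the largest fall on the log2(FPKM + 1) scale, to 1.56, 1.70 and 2.55 FPKM (log2 fold change -0.85, SE 0.13, limma adjusted p 0.00174). Mrpl12 fell to 39.4, 37.7 and 58.3 FPKM (-0.83) and Mrpl49 to 7.02, 6.83 and 9.94 (-0.73). In these 3 genes Mettl3 liver 3 was the closest to pair-fed livers, and still below all of them. Mrpl9 fell to 18.7, 19.5 and 20.2 FPKM (-0.68), and Mrpl18 to 13.2 FPKM in each liver (-0.52). Mrpl23, Mrps9, Mrps28, Mrpl28 and Mrpl48 fell by 0.57, 0.41, 0.40, 0.39 and 0.33, and Mrpl2, named after its value was seen, by 0.27. Limma's adjusted p for these 10 ran from 0.00261 to 0.0492.

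Side by side, 3 members were higher and 9 lower in both comparisons with pair-fed livers, 54 were called in neither, and none was called in opposite directions. Of all genes tested, 10.0% were higher and 26.0% lower in the first comparison, and 13.9% and 34.9% in the third. The share of all genes called alike in both was not counted, so the members' counts cannot be set beside it. Mrpl12 had log2 fold changes of -0.70 and -0.83, Mrpl14 -0.67 and -0.85, and Mrps18b 0.75 and 1.04. These comparisons share the pair-fed livers, so a deviation in those livers enters both. In the third comparison, 5, 4 and 4 members were higher and 7, 7 and 9 lower without pair-fed liver 1, 2 or 3. Without Mettl3 liver 1, 2 or 3, 4, 5 and 7 were higher and 7, 7 and 18 lower. Over all genes, between 9.39% and 11.6% were higher and between 23.8% and 26.6% lower in the first 5 of these fits, and 15.7% and 40.0% without Mettl3 liver 3.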

How the data were processed

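The members and the gene lists were chosen with earlier results of these data known. The tools fastp, HISAT2 and HTSeq and the build mm10 are named, per the submitters' processing notes; versions and strand setting are not given in the sources used here. The authors deposited FPKM for each library in 2 tables of 6 libraries. Per the file headers these tables also hold a signal column of mean normalised counts per group. The deposited fold (ratio), its log2 and the p-value and q-value columns are the authors' own DESeq2 test. The ethanol-fed columns, in both tables, differed by a relative 1.08e-06 at most, so all 9 libraries share a scale.

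Because the unit was FPKM, limma 3.58.1 (R 4.3.3; lmFit, eBayes with trend and robust settings) was run on log2(FPKM + 1). Genes entered with 1 FPKM or more in 3 or more of the libraries (10064, 9706 and 10229 genes), and p-values were adjusted over all of these by Benjamini-Hochberg, with a threshold of 0.05. Changes are on that scale, which understates low genes. The first and second comparisons used their own 6 libraries, the third all 9. Whole reads were recovered from the deposited values (100% whole within 0.05) and gave the depth and a limma-voom alternative. The fits were tested on simulated data. No pairing was used, since the labels give a shared number only. Same-numbered livers correlated in their deviations at -0.41 to 0.39 over the 3 comparisons, and different-numbered ones at -0.51 to 0.58. With 3 livers a group these values cannot settle whether livers were paired.

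Named members are up to 10 per direction with the largest called change, or up to 5 with the smallest p, the 3 highest and lowest by level in each subunit, the Mrps18 paralogs, the stalk, Mrps30 and Mrps36, and up to 4 genes a list; others are marked. Coordinates are RefSeq GRCm38. Python 3.11.15, numpy 2.4.6, pandas 2.3.3 and matplotlib 3.10.9 made tables and figures. Alternatives were another pseudocount (0.1), no filter, median-ratio scaling, limma-voom, other libraries in the fit, a replicate block, each library left out, and subunits by structure.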

Additional observations from a re-analysis of the deposited data

How the results depend on the processing

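Counts of called members moved with the processing, while no named member that was called changed direction. The median of all 78 members did change sign for ethanol-fed minus pair-fed livers, from -0.13 to 0.04 under median-ratio scaling. For ethanol-fed minus pair-fed livers, 2 members were higher with no filter and 2 with the replicate block, and 7 were lower with the block. The share of all genes called in those fits was not counted, so a change in calls over all genes cannot be told apart. Under median-ratio scaling 6 were lower, where 16.7% of all genes were, and the medians turned to 0.0923 and 0.0130. Leaving out 1 library gave 1 to 4 higher and 4 to 26 lower, with medians of -0.11 to -0.06 (small) and -0.24 to -0.12 (large). For the Mettl3 virus under ethanol every count was 0 in each alternative; the small-subunit median was 0.15 under median-ratio scaling, and leaving out 1 library gave 0.02 to 0.14 (small) and 0.04 to 0.12 (large). For Mettl3 against pair-fed livers, median-ratio scaling gave 25 higher and 4 lower with medians of 0.19 and 0.12, and leaving out 1 library gave 4 to 8 higher, 7 to 18 lower, and medians of -0.0660 to 0.00777 and -0.17 to -0.08. The cause of these shifts was not tested, nor was the part of the smaller fit when a library is left out.

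The replicate block rests on a shared number only. Same-numbered livers correlated in their deviations at -0.19, -0.11 and 0.11 in the first comparison and at -0.35, 0.39 and -0.41 in the second. In the third comparison the block gave 7 higher and 9 lower, and the share of all genes called with it was not counted. Of 14 named members called in the first comparison 4 passed under every alternative, and 8 of 18 in the third (Mrpl9, Mrpl12, Mrpl14, Mrpl16, Mrpl49, Mrps12, Mrps18b and Mrps31); none reversed. With 3 livers a group, no member whose change lay within 0.25, as most did, was called in the main fits. Mrps6, with 64 to 176 reads a library, has the widest counting error.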
